A study of Mus musculus with 2 samples.

Results

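The antioxidant enzymes described here are a set of 10 mouse genes that remove superoxide and peroxides: Sod1, Sod2, Sod3, Cat, Gpx1, Gpx3, Gpx4, Prdx1, Prdx6 and Txn1. They were followed through the array probe sets that the platform annotation assigns to a single gene. Of the 10 genes, 8 had such probe sets, 19 in all, out of 18193 genes and 45037 probe sets on the array. All 5 probe sets that list Prdx1 also list a second gene, Gm21399, so no value was assigned to Prdx1. No probe set listing Prdx6 was found in the annotation table used here, so Prdx6 was not analysed. RNA came from whole mouse lungs at embryonic day 18, and was measured on 1 Affymetrix array of wildtype tissue and 1 array of nmyc9a homozygotes, an allele which the labels describe as hypomorphic. Each RNA sample was taken from pooled lungs, and no source used here gives the strain, the sex or the size of a pool. The labels name no promoter or cell type for the allele. In RNA from a whole organ, fewer cells of a type and less RNA per cell cannot be told apart.

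Superoxide dismutases turn superoxide into hydrogen peroxide, and catalase, glutathione peroxidases and peroxiredoxins then reduce the peroxide to water. Thioredoxin and glutathione supply the electrons for the peroxiredoxins and the glutathione peroxidases, and are themselves recharged from NADPH. In several mammals, among them rats and rabbits, activities of these enzymes climb in the lung late in gestation, before the first breath exposes the tissue to air. Mycn, the gene altered here, encodes the N-Myc transcription factor, which the growing distal epithelium of the mouse lung needs. The comparison asks how transcripts of these enzymes stood in lungs with the hypomorphic allele shortly before birth.

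Promoter letters are given for the enzymes whose annotated start regions held the element most tied to antioxidant defence. The antioxidant response element, bound by Nrf2 with small Maf proteins, was searched as TGACNNNGC on both strands in the RefSeq windows of GRCm38.p6, each 300 bases long and ending shortly after a transcription start. Windows were listed for 8 of the 10 genes, Sod3 and Prdx6 having none. Gpx4 had 4 windows and each other listed gene had 1. Matches stood in the windows of Sod1 and Prdx1, against 12.4% of all 32851 windows. Both lie on the strand opposite to the gene and are printed along the gene's strand, with the matched letters in capitals. The Sod1 stretch is at chr16:90220696-90220724 and starts its match 56 bases before the annotated start, and the Prdx1 stretch is at chr4:116685456-116685484.
Sod1: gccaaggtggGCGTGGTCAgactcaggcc
Prdx1: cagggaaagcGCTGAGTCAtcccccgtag
The Prdx1 match overlaps a match to the AP-1 site TGANTCA, which 7.81% of windows hold. The E-box CACGTG, the letters that Myc family proteins bind with Max, was found in none of the members' windows and in 7.15% of all windows. With so few windows, neither the matches nor the missing E-box sets the enzymes apart from all windows. These matches describe letters only and say nothing of binding in these lungs.

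Array signals are given below in intensity units, wildtype first. The signals of the Nmyc9a array were multiplied by 0.977, which set the median log2 ratio of measured probe sets to 0. A probe set counts as measured when the mean of its signals reached 49.3, the 40th percentile of all signals, called the floor. A log2 ratio is Nmyc9a over wildtype, so a value above 0 is higher in the Nmyc9a lungs. Signals of different probe sets are not compared with each other, because brightness also depends on the probe. A single array per group allows no test and no replicate check, so the text gives no p-value, and the precision is limited by the number of arrays. As a yardstick, log2 ratios of different probe sets for 1 gene scattered with an SD of 0.40 (1.32-fold), pooled over 5671 genes. That scatter covers probe behaviour and not animals, and it pools measured probe sets of every brightness. Mycn itself read 66.3 and 84.8 by its brightest probe set and 51.1 and 85.4 by the other measured probe set. The position of these probes against the change in the allele was not given, so Mycn could not check the label.

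Across the 8 measured enzymes the arrays differed little, as they did for most measured genes. By the brightest probe set of each gene, 5 enzymes stood below 0 and 3 above it, with a median log2 ratio of -0.22 against -0.09 for all 12600 measured genes. Those below 0 made up 62.5% of the enzymes, beside 58.8% of all measured genes. The extracellular dismutase Sod3 was the single enzyme past 1.5-fold, and it was higher, at a log2 ratio of 0.72. None of the 8 was 1.5-fold lower, the lowest being the lipid peroxide reductase Gpx4 at -0.44. The background over all measured genes was 6.32% past 1.5-fold upward and 9.71% past it downward, and read against those shares neither count sets the enzymes apart. For 6 of the 8 enzymes the log2 ratio was smaller in size than the probe set SD of 0.40, the exceptions being Sod3 and Gpx4. Most measured genes also lay within that SD, their 25th and 75th percentiles being -0.35 and 0.19, so this does not set the enzymes apart. The negative median depended on scaling, since it was -0.02 after quantile normalization and -0.02 after loess on mean signal, each closer to 0 than the all-gene medians of -0.10 and -0.06.

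**Figure D1:**
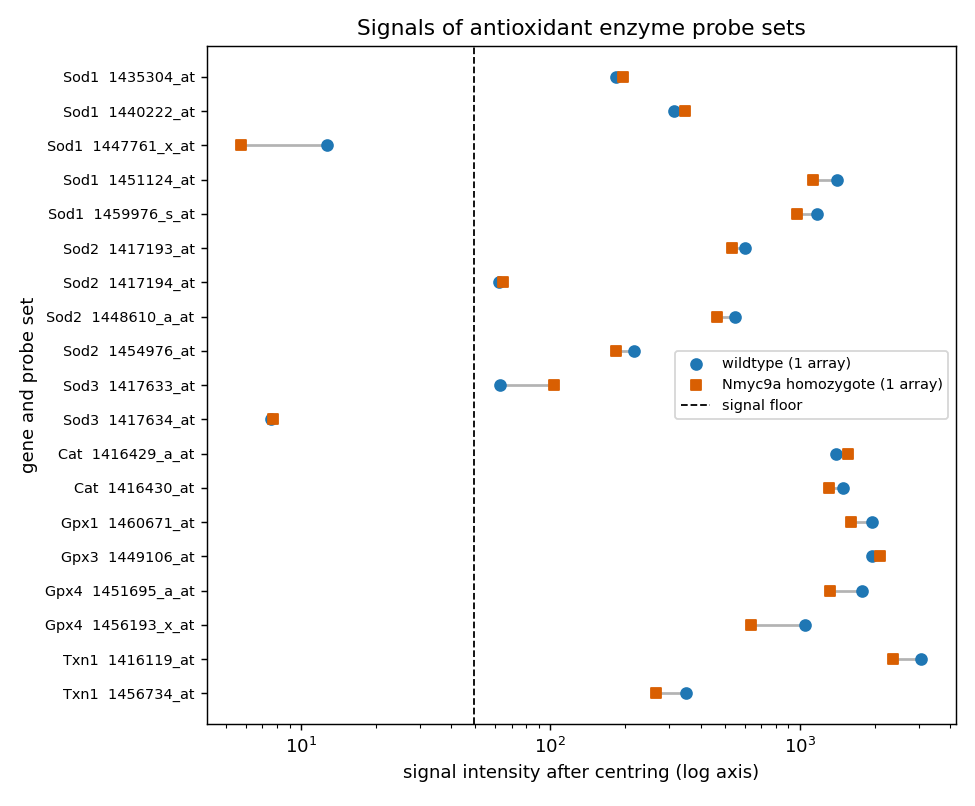
Signal intensity after centring (log axis) for each of the 19 probe sets of the 8 antioxidant enzymes, with a circle for the wildtype array, a square for the Nmyc9a array and a dashed line at the floor of 49.3. Most pairs lie close together, 2 probe sets lie below the floor on both arrays, and the measured Sod3 probe set lies just above it.

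The dismutases come in a cytosolic, a mitochondrial and a secreted form. Sod1, the copper-zinc enzyme of the cytosol, was read by 4 measured probe sets that did not agree in direction. Its brightest, 1451124_at, read 1408 and 1131 (log2 ratio -0.32), and 1459976_s_at read 1175 and 973 (-0.27). The dimmer pair went the other way, with 1440222_at at 313 and 345 (0.14) and 1435304_at at 183 and 195 (0.09). The wildtype array was therefore the higher for the bright pair and the lower for the dim pair, over a span of 0.46 in log2 ratio. A remaining Sod1 probe set, 1447761_x_at, read 12.7 and 5.76 and lay below the floor on both arrays.

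Sod2, the manganese enzyme of the mitochondrial matrix, differed less. Its brightest probe set, 1417193_at, read 603 and 536 (log2 ratio -0.17). The probe sets 1448610_a_at and 1454976_at stood at -0.24 and -0.24, from signals of 551 and 466 and of 216 and 183. The dimmest, 1417194_at, read 62.1 and 64.3 (0.05), close to the floor. Of the 4 Sod2 probe sets, 3 were lower on the Nmyc9a array, each by less than the probe set SD.

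Sod3, the secreted enzyme that binds to matrix around vessels and airways, rested on a single measured probe set. That probe set, 1417633_at, read 63 and 104, a 1.64-fold difference. The wildtype signal was 1.28 times the floor and the Nmyc9a signal 2.10 times the floor, whereas the other 7 enzymes exceeded 10 times the floor on both arrays. A second Sod3 probe set, 1417634_at, read 7.6 and 7.72, below the floor on both. The ratio of the measured probe set lay at the 96.2nd percentile of all measured genes. It was under 1.5-fold after quantile normalization (0.54), after loess (0.53) and when a pseudocount replaced the floor (0.51), and a floor at the 60th percentile left Sod3 unmeasured.

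Catalase, the peroxisomal enzyme that splits hydrogen peroxide, was read by 2 bright probe sets with opposite signs. The probe set 1416429_a_at read 1396 and 1561 (log2 ratio 0.16), while 1416430_at read 1486 and 1313 (-0.18). Each differed by less than the probe set SD, and the median of both was -0.01. The sign of Cat thus depends on which probe set is read.

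The glutathione peroxidases Gpx1, Gpx3 and Gpx4 are selenoproteins that spend glutathione to reduce peroxides. Gpx1, the main cytosolic form, read 1950 and 1608 by its only probe set, 1460671_at (log2 ratio -0.28). Gpx3, the secreted form found in plasma and lining fluid, read 1954 and 2091 by 1449106_at (0.10), the reverse direction. Both differences are smaller than the probe set SD.

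Gpx4, which reduces lipid peroxides within membranes, was the lowest of the enzymes. The probe set 1451695_a_at read 1782 and 1317 (log2 ratio -0.44), and 1456193_x_at read 1044 and 639 (-0.71, 1.64-fold). Both were higher on the wildtype array, and the second was the only member probe set at least 1.5-fold lower, against 9.24% of all 22457 measured probe sets with a single gene (9.31% were at least 1.5-fold higher, as was the Sod3 probe set here). The suffix of that probe set marks probes that can also bind related sequences. Among all measured genes the ratio of the brightest Gpx4 probe set lay at the 18.4th percentile, between the 5th and 95th percentiles (-0.73 and 0.65). It was -0.20 after quantile normalization and -0.21 after loess.

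Txn1, cytosolic thioredoxin, gave the closest agreement between probe sets. The probe set 1416119_at read 3073 and 2363 (log2 ratio -0.38), and 1456734_at read 350 and 265 (-0.40). Both were higher on the wildtype array, and their ratios differed by 0.02. Txn1 and Gpx4 were the 2 enzymes, of 5 with at least 2 measured probe sets, whose measured probe sets all had the same sign. After quantile normalization and loess the brightest Txn1 probe set stood at -0.19 and -0.15.

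**Figure D2:**
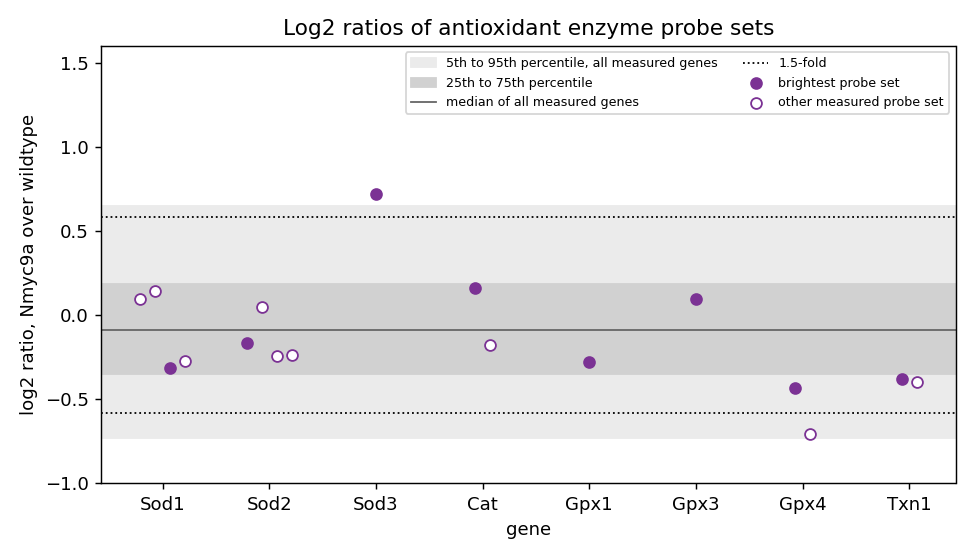
Log2 ratio (Nmyc9a over wildtype) of the 17 measured probe sets of the antioxidant enzymes, by gene, with filled circles for the brightest probe set and open circles for the others. Grey bands span the 25th to 75th and the 5th to 95th percentiles of all measured genes and dotted lines mark 1.5-fold. Sod3 lies above the upper dotted line and the dimmer Gpx4 probe set below the lower one, while Sod1, Sod2 and Cat have points on both sides of 0.

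Taken singly, 11 of the 17 measured probe sets stood below 0 and 6 above it, with a median of -0.24. The share below 0 over all measured probe sets with a single gene was 54.8%, and their median was -0.05. After loess 10 of the 17 stood below 0, none was 1.5-fold apart, and they spanned -0.50 to 0.53.

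Other genes of redox defence, a much larger set in which wider extremes can arise from its size alone, showed larger single differences. Of 95 genes in 8 lists by role, 82 were measured. The lists also include the oxidases that make superoxide. On the Nmyc9a array 10 of them (12.2%) were at least 1.5-fold lower and 1 (1.22%) higher, beside 9.71% and 6.32% of all measured genes. Their median was -0.23 and 68.3% stood below 0, against 58.8% of all measured genes. With loess 7 of the 82 were lower, beside 1164 of 12583 measured genes, and the medians were -0.13 and -0.06. With quantile normalization 10 were lower, beside 1375 of 12592, and the medians were -0.17 and -0.10. Of the 10 genes lower after centring alone, 6 were also 1.5-fold lower after quantile normalization, after loess and by the median of their probe sets. The exceptions were Gstm5, Park7, Prdx4 and Txn2, each under 1.5-fold in at least 1 of these settings.

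**Figure D3:**
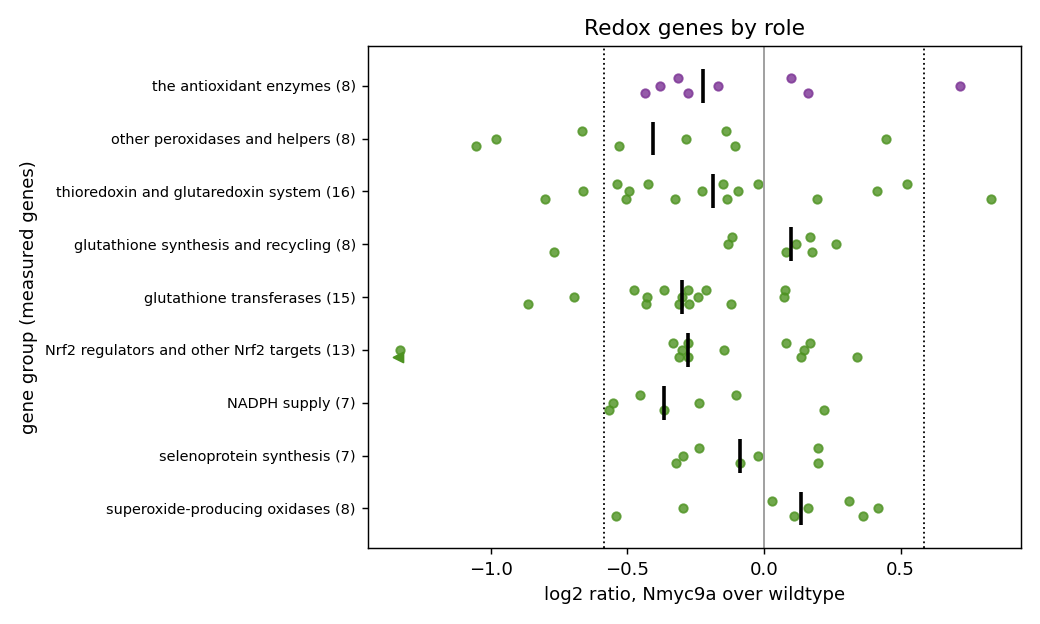
Log2 ratio of each measured gene in the antioxidant enzymes (top row) and in 8 lists of other redox genes, by the brightest probe set, with a black bar at each median, dotted lines at 1.5-fold and a triangle for Hmox1, whose ratio is a bound. Medians run from -0.41 for the other peroxidases to 0.14 for the superoxide-producing oxidases.

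Among 8 other measured peroxidases and their helpers, 3 were at least 1.5-fold lower, none was higher and the median was -0.41. Prdx4, the peroxiredoxin of the endoplasmic reticulum, read 1076 and 518 (log2 ratio -1.05), with its 3 measured probe sets from -1.05 to -0.13. Gpx8, a peroxidase of the same compartment, read 378 and 191 (-0.98), and Park7, a redox sensor, read 659 and 415 (-0.67). Srxn1, which repairs overoxidised peroxiredoxins, was the highest at 0.45. Prdx4 and Gpx8 thus stood further below 0 than any of the 8 enzymes, while Gpx7, also of the endoplasmic reticulum, stood at -0.28.

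The thioredoxin and glutaredoxin system had 2 genes of 16 lower and 1 higher, around a median of -0.19. Txn2, mitochondrial thioredoxin, read 393 and 248 (-0.66), and its 3 measured probe sets ran from -1.42 to -0.66. Txnl1, a thioredoxin-like protein that associates with the proteasome, read 910 and 522 (-0.80), and Glrx3, a glutaredoxin that handles iron-sulphur clusters, read 126 and 223 (0.83). Txnrd1, the reductase that recharges Txn1, read 304 and 300 (-0.02). Both the cytosolic and the mitochondrial thioredoxin thus read lower on the Nmyc9a array, and the reductase of the cytosolic form differed hardly at all.

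Glutathione synthesis and recycling stood near 0. A single gene of 8 measured was 1.5-fold lower and none higher, and the median was 0.10. Chac2, which breaks glutathione down, read 93.3 and 54.7 (-0.77), near the floor. Gss, glutathione synthetase, was the highest at 0.27, and Gclc, the catalytic subunit of the rate-limiting step, stood at 0.08.

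The glutathione transferases, which attach glutathione to reactive compounds, counted 2 of 15 measured at 1.5-fold lower and none higher, around a median of -0.30. Mgst3, a microsomal transferase, read 450 and 247 (-0.86), and Gstm5 read 474 and 293 (-0.70). Gstt3 was the highest at 0.08. In all, 13 of the 15 stood below 0.

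Of 13 measured regulators and other targets of Nrf2, the transcription factor that drives many antioxidant genes, 2 were lower, none was higher and the median was -0.28. Hmox1, haem oxygenase, read 125 and 29.9, and since the second signal lay under the floor it was at least 2.53-fold lower. Blvrb, a biliverdin reductase abundant in red cells, read 328 and 130 (-1.33). Nfe2l2, the gene of Nrf2, stood at -0.33, its inhibitor Keap1 at 0.08 and its relative Nfe2l1 was the highest at 0.34. The genes furthest apart in this list were thus Hmox1 and Blvrb, each read by 1 measured probe set.

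By the brightest probe set, none of the 7 measured genes of NADPH supply was 1.5-fold apart, around a median of -0.37. Idh1 was the lowest at -0.57 and Pgd the highest at 0.22. Of the 4 measured Pgd probe sets, however, 3 stood below 0, down to -0.45. Dimmer probe sets passed 1.5-fold for Idh1 (-1.44) and Me1 (-2.20), and both genes were 1.5-fold lower by the median of their probe sets. None of the 7 genes for making selenoproteins was 1.5-fold apart by its brightest probe set either, with a median of -0.09. Trnau1ap was the lowest at -0.32 and Secisbp2 the highest at 0.20. Dimmer probe sets reached -0.62 for Sephs1 and 1.43 for Sephs2.

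Markers of cell types that also carry these enzymes differed between the arrays, and their part in the values above was not tested. Of 13 measured proliferation genes 12 were at least 1.5-fold lower, from Mcm5 at -1.80 to Aurkb at -0.15. The 14 with a probe set, measured or not, summed to 5714 on the wildtype array and 2854 on the Nmyc9a array. The 8 measured erythroid genes included 2 lower and 0 higher, from Trim10 at -1.35 to Hbb-y at 0.10. The 9 with a probe set summed to 6021 and 4577, of which Alas2 alone gave 4585 and 3540. Sums of signals, here and for the other cell types, mostly follow the brightest probe sets. Liver genes went the other way, with 6 of 9 measured higher and 1 lower, from Rbp4 at -0.70 to Alb at 140 and 558. Among those 6, Apoa1, Ttr, Fga and Fgg had wildtype signals under the floor, so their ratios are bounds. The 13 liver genes with a probe set summed to 753 and 1684. Smooth muscle and pericyte genes had 4 of 8 measured lower, from Myh11 at -1.61 to Des at 0.39. The 9 with a probe set summed to 5414 and 3802.

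The lung label was borne by its defining transcripts. The 9 measured type 2 alveolar markers summed to 35204 and 34216, from Sftpd at -0.83 to Lyz2 at 0.32, with 1 lower. The 10 type 1 markers summed to 24613 and 20208, from S100a6 at -0.99 to Akap5 at 0.10, with 2 lower. The 8 club cell markers summed to 14326 and 16370, from Aldh1a1 at -0.63 to Scgb3a1 at 1.06, with 1 higher and 1 lower. Of 13 measured macrophage and granulocyte markers 1 was higher and 3 were lower, from Lcn2 at -0.996 to Chil3 at 1.82, and 10 stood below 0. The 14 with a probe set, measured or not, summed to 10344 and 9470. Lyz2, also counted among the type 2 markers, gave 3626.5 and 4517 of these sums.

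**Figure D4:**
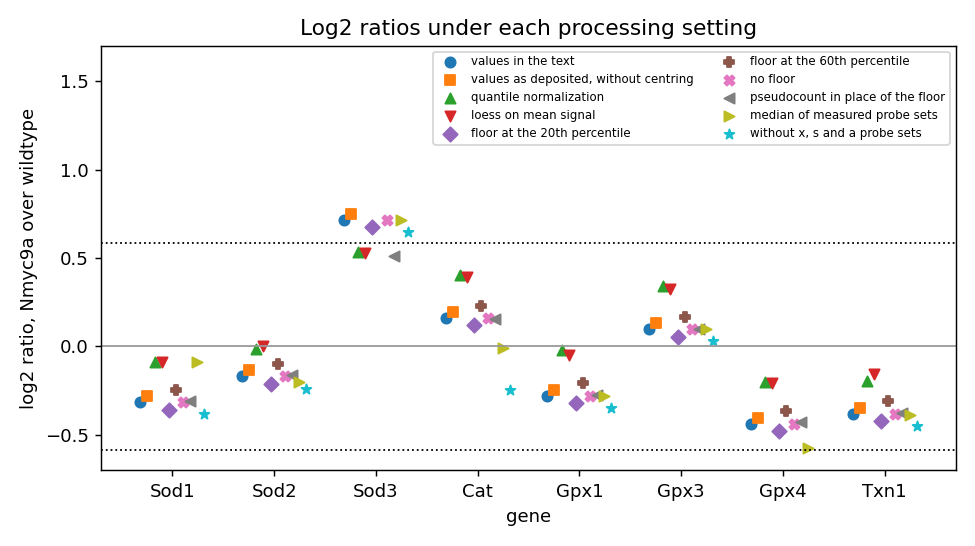
Log2 ratio of the brightest probe set of each antioxidant enzyme (Nmyc9a over wildtype) as given in the text and under 9 other processing settings, with dotted lines at 1.5-fold. Sod3 lies on both sides of the upper dotted line, Cat on both sides of 0, and the triangles for quantile normalization and loess lie above the circle for every enzyme except Sod3.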

How the data were processed

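The deposited value table holds a linear signal intensity per probe set for each array. No source used here gives the scanner software, scaling or filters. RNA preparation used Trizol and an RNeasy kit, with biotin and the Affymetrix labelling protocol, per the labels. The deposited means were 150 on both arrays after trimming 2% of values at each end. Control probe sets (64 of 45101) were set aside. The Nmyc9a array was centred, signals below the floor of 49.3 were raised to it, and log2 ratios were taken. A ratio with either signal under the floor is a bound. Each gene took its brightest probe set.

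The platform annotation gave 34945 probe sets a single gene, 932 several and 9160 none. Symbols were updated through Entrez identifiers to RefSeq GRCm38.p6 (34741 matched). All members, every other redox gene at least 1.5-fold apart, and the highest and lowest gene of each list were named by rule. Further genes (Txnrd1, Gclc, Gpx7, Nfe2l2, Keap1, Me1, Sephs1, Sephs2, Alas2, Apoa1, Ttr, Fga and Fgg) were picked with their values known. The members and lists were chosen with earlier results of these data known. Scaling and ratios were tested on simulated data. Python 3.11.15, pandas 2.3.3 and statsmodels 0.14.6 were used.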

Additional observations from a re-analysis of the deposited data

How the results depend on the processing

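The signals bear on 2 arrays only, so the settings below show how values move with processing and not how they would repeat. Among the enzymes, the count 1.5-fold higher was 0 in place of 1 after quantile normalization, after loess, with a 60th percentile floor, with a pseudocount of 32 and under a 2-fold rule. The count 1.5-fold lower was 1 in place of 0 when probe sets were counted singly. Their median ran from -0.27 (floor at the 20th percentile) to -0.02 (quantile normalization), and it lay above that of all measured genes by 0.08 after quantile normalization and 0.04 after loess. Dropping probe sets with the suffix x, s or a put Cat at -0.25 and left Gpx4 with no probe set. Among the other redox genes, the count 1.5-fold higher was 2 after quantile normalization, loess or a 60th percentile floor, 3 with a 20th percentile floor, 4 by single probe sets and 0 at 2-fold. The count lower was 20 by single probe sets and 3 at 2-fold, and otherwise ran from 7 to 12. Among all measured genes, the counts higher and lower were 1489 and 2136 with a 20th percentile floor, 483 and 641 with a 60th percentile floor, 2091 and 2076 by single probe sets, and 163 and 174 at 2-fold. A pseudocount gave 503 higher. By construction the 60th percentile floor counts fewer genes (9377), the 20th percentile floor and single probe sets count more features (15711 and 22457), and the 2-fold rule asks a larger difference of the same 12600 genes. For the other settings the cause was not tested. Leaving out an array was not possible with 1 per group. No paired analysis was possible because each group holds 1 array.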

Other observations

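By their brightest probe sets, genes of the oxidases that make superoxide, as opposed to removing it, did not pass 1.5-fold in either direction. Of 8 measured genes of the superoxide-producing oxidases 6 stood above 0 and the median log2 ratio was 0.14, while their summed signal was 2361 on the wildtype array and 2238 on the Nmyc9a array. Cybb, the catalytic subunit of the phagocyte oxidase, read 158 and 211. Its 3 measured probe sets ran from 0.27 to 0.59, the last just past 1.5-fold. Rac2, a GTPase that switches that oxidase on, stood at 0.31 and the cytosolic subunit Ncf1 at 0.11. Cyba, the membrane partner of Cybb, went the other way at 864 and 594 (-0.54), the lowest of the list. The partners in the same membrane complex thus had opposite signs on these arrays. Xdh, xanthine dehydrogenase, stood at 0.16, and Nox4, an oxidase outside phagocytes, at -0.30. A second Nox4 probe set stood at -0.62, past 1.5-fold. Rac2, Ncf1, Xdh and Nox4 were chosen after their values were seen.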
